A study of Mus musculus with 6 samples.

Results

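The genes described are the Cyp2 family of cytochrome P450 genes in mouse liver, taken as every gene symbol made of Cyp2, a subfamily letter and a number. The rule found 46 members among 17975 genes. RNA was sequenced from whole liver of 3 Hom mice, which carry NEK7 fl/fl and Alb-Cre, and of 3 WT mice, with 1 liver per mouse, on the DNBSEQ platform. Alb-Cre is driven by the albumin promoter and deletes Nek7 in hepatocytes, so that the other cells of the liver keep the gene, and the mice were on a C57BL/6 background. The study used mice of both sexes in its knockout experiments, and the sex and age of each of these 6 animals were not given in the sources used here. The targeted gene Nek7 was at 62.9, 69.1 and 63.7 CPM in the WT livers and at 14.5, 18.1 and 16.7 CPM in the Hom livers. Here and throughout, values of single livers are given in the order of replicates 1, 2 and 3. The estimated counts summed to between 19349418 and 19730236 per library, and CPM values are counts scaled to library size, corrected for composition by the trimmed mean of M-values (TMM).

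Cyp2 enzymes are heme proteins of the endoplasmic reticulum membrane. They receive electrons from cytochrome P450 reductase, with cytochrome b5 as a further donor, and use them to insert oxygen into drugs, solvents, steroids and fatty acids. Most of the liver-expressed members sit in gene clusters of close copies, and hepatocytes near the central vein carry more of several of them than hepatocytes near the portal vein. Some members are higher in male or in female livers under the pattern of growth hormone release, and others are induced by foreign compounds through the constitutive androstane receptor (CAR).

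A pair of livers stood apart from the rest of their groups. Hom replicate 1 had 0 counts of the Y-linked genes Ddx3y and Kdm5d and 4 counts of Eif2s3y, while every other liver had at least 243 counts of each. It had 149 counts of the Y-linked gene Uty, against 464 to 725 in the other livers. The 4 Y-linked genes examined summed to 7.14 CPM in Hom replicate 1 and to between 127 and 137 CPM in the other 5 livers. WT replicate 1 had these Y-linked transcripts, but its 6 male-predominant genes outside the Cyp2 family summed to 1988 CPM, against 10769 and 10178 in WT replicates 2 and 3. Among its Cyp2 genes, the 5 female-predominant members summed to 149 CPM in WT replicate 1, against 5.97 and 7.50 in the other WT livers. For Cyp2 genes, calls that changed when 1 of these livers was left out are given below, with several changes of sign.

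The Cyp2 family was lower in the Hom livers in most of its measured members. Of the 46 genes, 36 had enough counts to be tested, and 20 of them fell, 1 rose (Cyp2s1) and 15 did not pass the threshold. A gene was called when its p from the quasi-likelihood test of edgeR, adjusted by the Benjamini-Hochberg method over 13805 tested genes, was under 0.05. Among all tested genes, 2780 fell (20.1%) and 2974 rose (21.5%). The log2 fold changes of the 20 lower members ran from −3.41 to −0.47, and 18 of them were at −1 or less, against 575 of all tested genes (4.17%). The median log2 fold change of the 36 tested members was −1.13, and that of all tested genes was −0.0018. The groups did not overlap, with every Hom liver the lower, in 24 tested members, among them the 20 that were called, against 27.0% of all tested genes. With every Hom liver the higher it was 1 member, against 28.7% of all tested genes. The other 50 cytochrome P450 genes in the table had 36 tested members, of which 18 fell and 5 rose, with a median of −0.86. In whole liver, fewer cells of a type and less RNA per cell cannot be told apart.

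**Figure D1:**
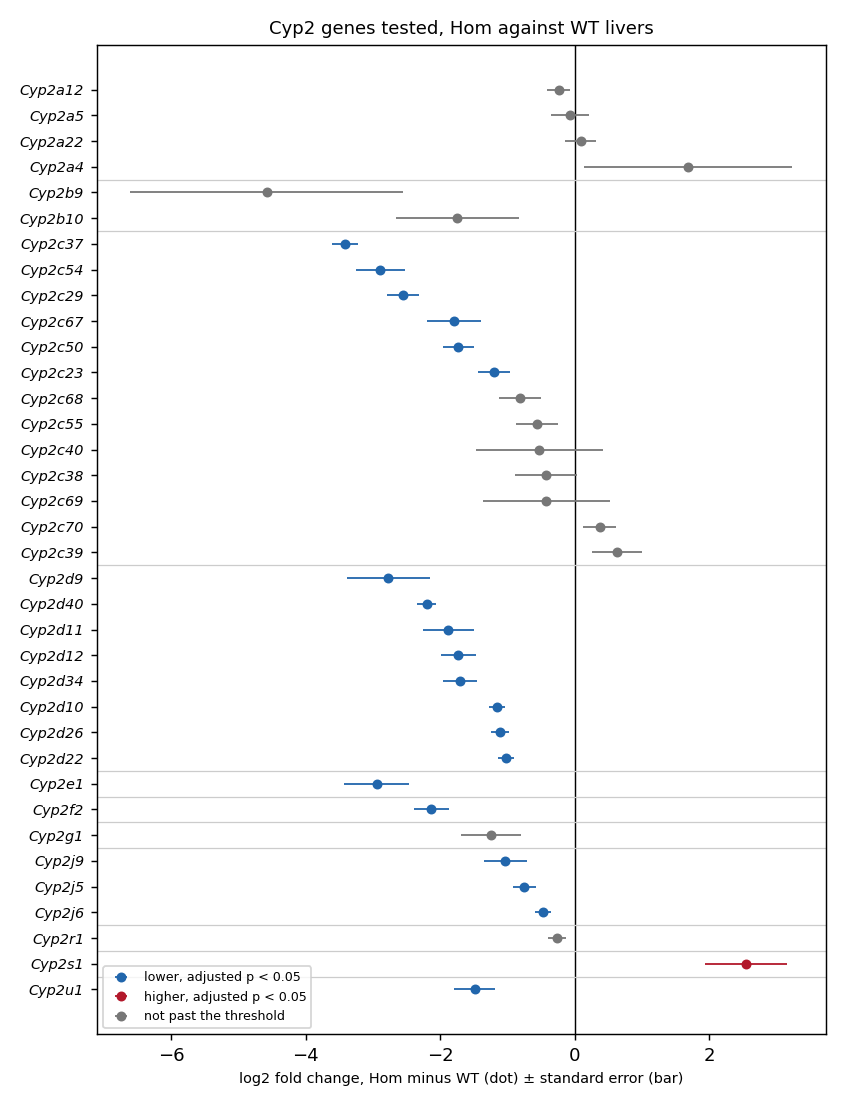
Log2 fold change, Hom minus WT, of the 36 tested Cyp2 genes (dots, horizontal axis) with the standard error (bars), grouped by subfamily and coloured by the edgeR call. All 8 Cyp2d genes lie to the left of 0, the Cyp2c genes run from −3.41 to 0.62, the 4 Cyp2a genes straddle 0, and Cyp2s1 is the only gene called higher.

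The number of lower members was 20 without Hom replicate 1, 19 without WT replicate 1 and 21 without both, of which 19 were among the 20 in each case. The scaling between libraries moved all genes together. With library size alone, the median of all tested genes moved to 0.45 and 16 members were lower and 2 higher, while 642 of all tested genes were lower and 6574 higher. On log2(TPM + 1) values, 15 members were lower and 4 higher, while 416 of 12362 tested genes were lower and 7718 higher. All log2 fold changes given here are relative to the TMM scale.

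Markers of several cell types also differed between the groups, in both directions. Of 19 hepatocyte markers measured, 11 fell and 1 rose, and their sum was 175782 to 212020 CPM in WT and 96392 to 150047 CPM in Hom livers. With library size alone, 5 of these fell and 2 rose, and on log2(TPM + 1) values 3 fell and 2 rose. Of 7 pericentral markers outside the family, 5 fell, and their sum went from between 4502 and 4800 CPM to between 1037 and 1981. Of 7 periportal markers, 1 fell, with sums of 14225 to 16311 CPM in WT and 7568 to 13985 CPM in Hom livers. All 7 fell when Hom replicate 1, the liver with the highest Hom sum, was left out, and also without both livers numbered 1. None of them fell without WT replicate 1 or with library size alone. Cholangiocyte markers rose in 9 of 10 cases, from sums of 72.7 to 104 CPM to sums of 635 to 890. Stellate cell and fibroblast markers rose in 6 of 10 cases and fell in 1, with sums of 340 to 400 CPM in WT and 725 to 801 in Hom livers. Endothelial markers fell in 6 of 9 cases, with sums of 200 to 273 CPM in WT and 120 to 133 CPM in Hom livers, and with library size alone 3 fell and 1 rose. Macrophage markers fell in 2 and rose in 2 of 9 cases, with overlapping sums of 237 to 591 CPM in WT and 319 to 437 CPM in Hom livers. WT replicate 1 had the highest sum. Without it 1 fell and 4 rose, and without both livers numbered 1, 2 fell and 4 rose. On log2(TPM + 1) values 1 fell and 4 rose. No marker was at 0 in every liver, and the part of these cell types in the Cyp2 values was not tested.

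TPM values, which correct for transcript length and add up to a fixed total, allow levels to be compared between genes. Cyp2 genes together took 1.80%, 1.93% and 1.82% of all TPM in the WT livers and 0.746%, 0.962% and 0.932% in the Hom livers. The group means were 1.85% ± 0.069 and 0.880% ± 0.117 (SD, n = 3 livers each), and the groups did not overlap (p = 0.1 in a two-sided exact permutation test, which is the lowest value possible with 3 against 3 livers). In WT livers 18 members had a mean of at least 100 TPM, and 14 of these fell while 4 did not pass the test. The order of the members differed between the groups. In each WT liver the 3 members with the highest TPM were Cyp2e1, Cyp2c29 and Cyp2f2, in that order. In Hom replicate 1 the order began with Cyp2c70, Cyp2a12 and Cyp2d26, in Hom replicate 2 with Cyp2e1, Cyp2a5 and Cyp2c70, and in Hom replicate 3 with Cyp2e1, Cyp2c70 and Cyp2a12.

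**Figure D2:**
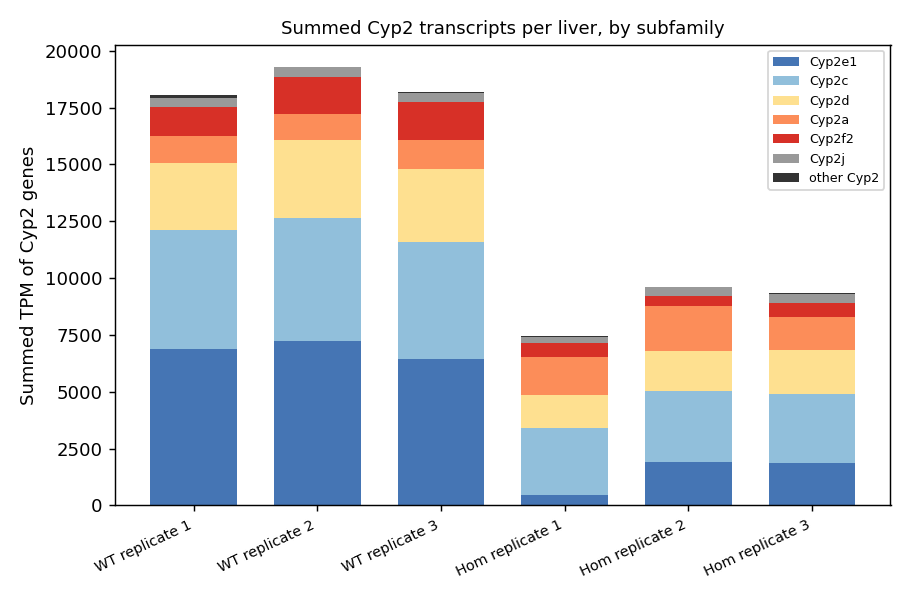
Summed TPM of the Cyp2 genes in each liver (vertical axis), stacked by subfamily, 1 bar per liver. The WT bars reach 18034 to 19303 TPM and the Hom bars 7461 to 9625, and the Cyp2e1 segment is smallest in Hom replicate 1.

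Cyp2e1 (NCBI Gene 13106), the pericentral enzyme that oxidises ethanol and turns acetaminophen into its toxic product, had the highest mean TPM in both groups, although it ranked 7 among the members in Hom replicate 1. It was at 7229, 9244 and 8136 CPM in WT and at 396, 1399 and 1401 CPM in Hom livers. The groups did not overlap, and Hom replicate 1 was far below the other Hom livers. Cyp2e1 fell 7.70-fold between the group means, with a log2 fold change of −2.95 (SE 0.48, adjusted p = 0.00406, edgeR). Without Hom replicate 1 the log2 fold change was −2.55 (adjusted p = 9.64e-04), and without both livers numbered 1 it was −2.62. Cyp2e1 made up 35.4% to 38.2% of the family's TPM in WT livers, and 6.31%, 19.9% and 19.9% in the Hom livers. Its promoter is shown because this gene made up more of the family's TPM than any other member in the WT livers. The 250 bases before its RefSeq start site (GRCm38.p6, 5′ to 3′), with the TATA box match TATAAA in capitals from 31 to 26 bases before the start, read:
Cyp2e1 (chr7:140763569-140763818, plus strand): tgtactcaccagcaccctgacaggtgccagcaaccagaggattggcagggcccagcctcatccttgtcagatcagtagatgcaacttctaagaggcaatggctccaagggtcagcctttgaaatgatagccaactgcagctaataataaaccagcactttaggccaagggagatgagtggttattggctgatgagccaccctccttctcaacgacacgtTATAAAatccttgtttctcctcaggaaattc

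The Cyp2c subfamily held the member with the largest fall as well as several members that did not pass the test. Its enzymes oxidise drugs and arachidonic acid, and its genes lie in a cluster on chromosome 19. Of its 15 members 13 were tested, and 6 fell, none rose and 7 did not pass. Counted as a single feature, all 15 genes summed to 5567, 6990 and 6609 CPM in WT and 2448, 2296 and 2315 CPM in Hom livers, with a log2 fold change of −1.44 (SE 0.17, adjusted p = 0.00116, edgeR).

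Cyp2c37 (NCBI Gene 13096), a pericentral and CAR-inducible enzyme that oxidises arachidonic acid, had the largest fall of all called members. It was at 579, 534 and 664 CPM in WT livers and at 42.9, 64.1 and 59.7 CPM in Hom livers. This was a 10.7-fold difference between means (log2 fold change −3.41, SE 0.19, adjusted p = 1.61e-04, edgeR), and the groups lay far apart relative to their spread. Within the subfamily Cyp2c54 followed, at 445, 556 and 496 CPM in WT and 33.1, 75.5 and 92.9 CPM in Hom livers (log2 fold change −2.89, SE 0.37). Cyp2c29, another pericentral and CAR-inducible member, was at 1386, 2238 and 2168 CPM in WT and 384, 278 and 326 CPM in Hom livers (log2 fold change −2.55, SE 0.24). For Cyp2c29 the lowest WT liver was replicate 1 and the highest Hom liver was also replicate 1, and they did not overlap. Cyp2c50 was at 1239, 1553 and 1477 CPM in WT and 302, 452 and 532 CPM in Hom livers (log2 fold change −1.73, SE 0.23). The adjusted p-values of Cyp2c54, Cyp2c29 and Cyp2c50 were 0.00159, 6.05e-04 and 0.00186. Cyp2c23 and Cyp2c67 were the other members that fell, at −1.20 and −1.80, and Cyp2c23 lost the call with library size alone (−0.72, adjusted p = 0.0513) and on log2(TPM + 1) values (−0.63).

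Cyp2c70 (NCBI Gene 226105), which makes muricholic acids in the mouse, did not pass the test. It was at 645, 882 and 629 CPM in WT and 1254, 792 and 734 CPM in Hom livers, so that the groups overlapped and Hom replicate 1 was the highest liver. The log2 fold change was 0.37 (SE 0.25, adjusted p = 0.267, edgeR), and 0.086 without Hom replicate 1. It passed the threshold as higher with library size alone (0.81, adjusted p = 0.0149) and on log2(TPM + 1) values (0.96). Cyp2c55, a CAR-inducible member, was at 12.6, 17.4 and 12.5 CPM in WT and 5.41, 10.9 and 12.5 CPM in Hom livers (log2 fold change −0.56, adjusted p = 0.181). The remaining members that did not pass, among them Cyp2c38, Cyp2c39 and Cyp2c68, had log2 fold changes from −0.81 to 0.62. Cyp2c39 was called higher without WT replicate 1 and on log2(TPM + 1) values. Cyp2c68 was called lower with DESeq2 and with a block for the replicate number.

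The upstream sequences of 4 Cyp2c genes are shown because they lie in the same cluster and the test called Cyp2c29, Cyp2c37 and Cyp2c50 lower but not Cyp2c70. The 250 bases before the RefSeq start of Cyp2c37 and Cyp2c50 were 84.3% identical to each other, whereas Cyp2c29 was 51.3% identical to Cyp2c37, and Cyp2c70 was 41.2% identical to Cyp2c37. Capitals mark matches on either strand to TATAAA, to TTGCNNAA (a C/EBP motif), to CAAAGTCCA (an HNF4 motif) and to AGGTCA (a nuclear receptor half-site), all in GRCm38.p6 and written 5′ to 3′ along the gene:
Cyp2c29 (chr19:39286835-39287084, plus strand): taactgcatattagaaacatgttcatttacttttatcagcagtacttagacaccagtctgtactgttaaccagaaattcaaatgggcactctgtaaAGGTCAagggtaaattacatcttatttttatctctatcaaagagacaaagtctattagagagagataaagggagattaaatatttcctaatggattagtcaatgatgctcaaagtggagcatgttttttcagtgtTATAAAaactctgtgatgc
Cyp2c37 (chr19:39992174-39992423, plus strand): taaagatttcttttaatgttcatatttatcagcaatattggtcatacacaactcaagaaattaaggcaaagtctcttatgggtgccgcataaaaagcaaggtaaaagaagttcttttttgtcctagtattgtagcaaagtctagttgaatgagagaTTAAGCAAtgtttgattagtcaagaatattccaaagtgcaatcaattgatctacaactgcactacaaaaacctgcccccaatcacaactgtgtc
Cyp2c50 (chr19:40089429-40089678, plus strand): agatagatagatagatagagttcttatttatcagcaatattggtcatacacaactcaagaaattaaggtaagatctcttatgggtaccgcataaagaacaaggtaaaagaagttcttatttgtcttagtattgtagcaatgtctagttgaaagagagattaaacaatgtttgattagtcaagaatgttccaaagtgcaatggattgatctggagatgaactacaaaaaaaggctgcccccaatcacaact
Cyp2c70 (chr19:40187287-40187536, minus strand): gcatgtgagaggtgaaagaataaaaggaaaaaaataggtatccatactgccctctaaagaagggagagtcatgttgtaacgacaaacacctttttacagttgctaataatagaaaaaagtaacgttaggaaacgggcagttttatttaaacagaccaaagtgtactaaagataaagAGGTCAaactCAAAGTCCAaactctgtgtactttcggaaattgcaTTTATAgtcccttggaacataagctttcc

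Over the whole family, 39 members had a RefSeq promoter entry. TATAAA occurred in the upstream 250 bases of 18 of them, against 12.4% of all 32851 promoter windows of that length. TTGCNNAA occurred in 12 members, against 9.56% of windows, and AGGTCA in 10 members, against 14.0%. CAAAGTCCA occurred in 6 members, all of the Cyp2c subfamily (Cyp2c40, Cyp2c65, Cyp2c67, Cyp2c68, Cyp2c69 and Cyp2c70), against 0.384% of windows. Of these 6, Cyp2c67 fell, 4 did not pass the test and Cyp2c65 was not tested. TGTTTAC, a FOXA motif, occurred in 3 members and TTCNNNGAA, a STAT motif, in 1, against 3.17% and 7.02% of windows. Both strands were searched, and a match is a description of the letters, not of binding.

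All 8 members of the Cyp2d subfamily were tested and all 8 fell, with log2 fold changes from −2.77 to −1.02. Summed as a single feature they were at 2967, 4206 and 3857 CPM in WT and 1186, 1248 and 1434 CPM in Hom livers (log2 fold change −1.51, SE 0.19, adjusted p = 0.00146, edgeR). Cyp2d9, a male-predominant steroid hydroxylase, was at 611, 1577 and 1442 CPM in WT and 58.4, 190 and 283 CPM in Hom livers. In both groups replicate 1 was the lowest liver. Its log2 fold change was −2.77 (SE 0.62, adjusted p = 0.0120), and −2.66 without both livers numbered 1 (adjusted p = 0.00107). Cyp2d40 was at 80.9, 98.4 and 92.4 CPM in WT and 16.8, 19.0 and 23.3 CPM in Hom livers (log2 fold change −2.20, SE 0.14, adjusted p = 2.44e-04).

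Cyp2d26 was at 1132, 1211 and 1095 CPM in WT and 583, 471 and 541 CPM in Hom livers (log2 fold change −1.11, SE 0.13, adjusted p = 0.00140, edgeR). Cyp2d22, which is often compared with the human drug-metabolising CYP2D6, was at 268, 337 and 285 CPM in WT and 134, 156 and 150 CPM in Hom livers (log2 fold change −1.02, SE 0.12, adjusted p = 0.00133). The groups did not overlap for either gene. Cyp2d10 fell by 1.16 on the log2 scale, and Cyp2d11, Cyp2d12 and Cyp2d34, all under 10 CPM on average in both groups, had log2 fold changes of −1.88, −1.73 and −1.71. Cyp2d11 had only 18, 12 and 11 counts in WT and 5, 4 and 6 counts in Hom livers.

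Cyp2f2 (NCBI Gene 13107), which oxidises naphthalene and is higher in periportal than in pericentral hepatocytes, fell as well. It was at 1382, 2180 and 2178 CPM in WT and 509, 321 and 476 CPM in Hom livers. The groups did not overlap, although WT replicate 1 was well below the other WT livers. The log2 fold change was −2.14 (SE 0.26, adjusted p = 0.00144, edgeR). Of the 5 members listed as pericentral, 4 fell (Cyp2e1, Cyp2c29, Cyp2c37 and Cyp2c50) and Cyp2a5 did not pass the test, with a median of −2.55.

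The Cyp2j genes, epoxygenases and hydroxylases of fatty acids, had smaller differences. All 3 tested members of 6 fell on the TMM scale, but none was called with library size alone or on log2(TPM + 1) values. The summed counts of all 6 members had a log2 fold change of −0.71 (SE 0.16, adjusted p = 0.0140, edgeR). Cyp2j5 was at 462, 653 and 621 CPM in WT and 292, 355 and 385 CPM in Hom livers (log2 fold change −0.75, SE 0.17, adjusted p = 0.0141), and it lost the call without WT replicate 2 (−0.66, adjusted p = 0.0503). It was at −0.28 with library size alone and at −0.13 on log2(TPM + 1) values. Cyp2j6 was at 87.8, 116 and 101 CPM in WT and 68.0, 74.6 and 77.3 CPM in Hom livers (log2 fold change −0.47, SE 0.12, adjusted p = 0.0174), but was at −0.0042 with library size alone and at 0.18 on log2(TPM + 1) values. It also lost the call without Hom replicate 2 (adjusted p = 0.0537). Cyp2j9 was at 14.7, 8.53 and 5.96 CPM in WT and 4.53, 5.24 and 4.53 CPM in Hom livers, so that the groups stood apart by less than the spread among WT livers. Its call (log2 fold change −1.03, adjusted p = 0.0384) was lost when WT replicate 1, WT replicate 2 or any Hom liver was left out, with adjusted p-values of 0.0596 to 0.110.

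Cyp2s1 (NCBI Gene 74134), a P450 found mainly in epithelia outside the liver, was the member that rose. It was at 0.50, 1.35 and 0.43 CPM in WT and at 7.65, 3.34 and 2.33 CPM in Hom livers, with no overlap. The log2 fold change was 2.55 (SE 0.61, adjusted p = 0.0159, edgeR). It was 1.90 without Hom replicate 1 (adjusted p = 0.0338) and 1.69 without both livers numbered 1, and it narrowly missed the threshold without WT replicate 3 (log2 fold change 2.27). The cholangiocyte markers, which are epithelial genes, were also higher in the Hom livers. Among the Hom livers, Cyp2s1 was highest in replicate 1, where the sum of these markers was lowest (635 CPM, against 678 and 890). That sum included Spp1 at 520, 534 and 733 CPM, and the order of the Hom livers differed between markers. Krt19, at 17.7, 15.1 and 21.5 CPM, was lowest in replicate 2. A link between Cyp2s1 and these markers was not tested. Cyp2u1, a hydroxylase of long-chain fatty acids, fell by 1.49 on the log2 scale (SE 0.30, adjusted p = 0.00888). Cyp2r1, a hydroxylase of vitamin D, was at 12.6, 13.2 and 14.1 CPM in WT and 10.6, 12.8 and 9.87 CPM in Hom livers, and its log2 fold change of −0.26 (adjusted p = 0.147) did not pass the test and was 0.20 with library size alone. Cyp2g1, best known from olfactory epithelium, had a log2 fold change of −1.25 (adjusted p = 0.0613).

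**Figure D3:**
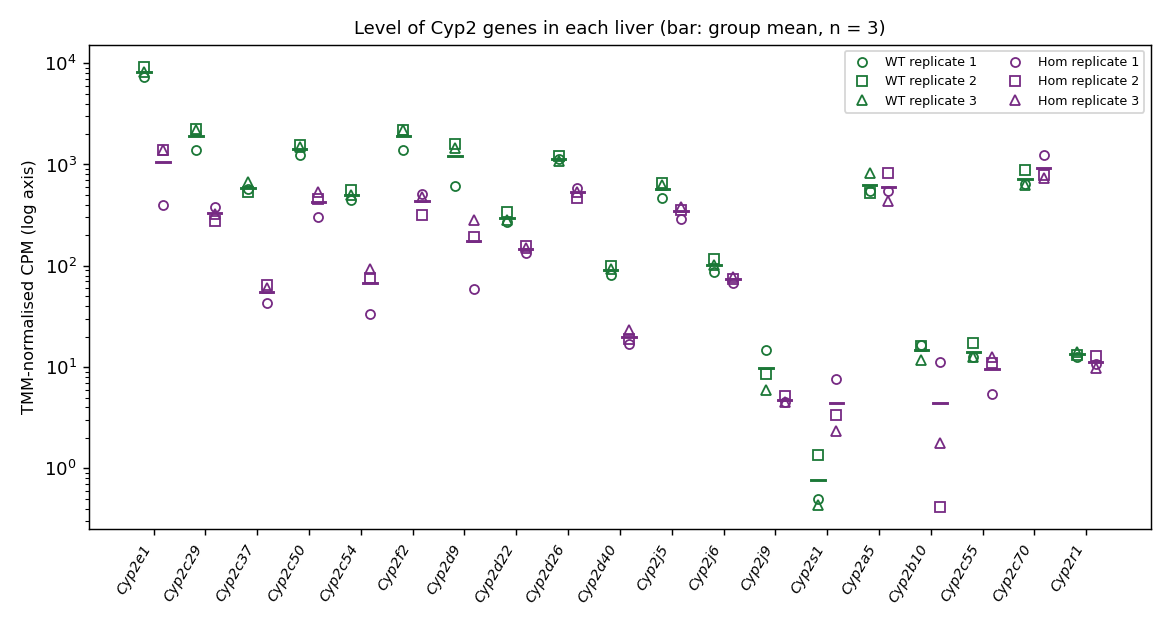
TMM-normalised CPM (vertical log axis) of 19 Cyp2 genes in each liver, with 1 symbol per liver and a bar at the group mean (n = 3 per group). For the genes from Cyp2e1 to Cyp2j9 all Hom symbols lie below all WT symbols, for Cyp2s1 they lie above, and Cyp2a5, Cyp2c70 and Cyp2r1 overlap.

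The Cyp2a subfamily did not pass the test in any of its 4 members, and its summed level overlapped between the groups. The sum was 1196, 1359 and 1588 CPM in WT and 1346, 1384 and 1038 CPM in Hom livers (log2 fold change −0.14, SE 0.18, adjusted p = 0.564, edgeR). Cyp2a5, the pericentral coumarin hydroxylase, was at 545, 528 and 820 CPM in WT and 541, 830 and 434 CPM in Hom livers. Its log2 fold change was −0.068 (SE 0.28, adjusted p = 0.862), and the sign turned with library size alone (0.40). Cyp2a4, a female-predominant steroid hydroxylase, was at 18.1, 0.19 and 0.25 CPM in WT and 51.8, 5.90 and 3.10 CPM in Hom livers. In both groups replicate 1 was the highest liver. Over all livers Cyp2a4 did not pass the test (1.69, SE 1.55, adjusted p = 0.411), whereas without both livers numbered 1 it was higher in Hom livers (4.33, adjusted p = 0.00283). Without WT replicate 1 alone it was also called higher (6.48, adjusted p = 0.0413). Cyp2a12 had a log2 fold change of −0.24 (adjusted p = 0.303) over all livers. It was called lower without both livers numbered 1, but higher on log2(TPM + 1) values.

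The promoters of Cyp2a4 and Cyp2a5 are shown because the genes are close copies, yet Cyp2a4 ranged from 0.19 to 51.8 CPM over the 6 livers and Cyp2a5 from 434 to 830 CPM. Their upstream 250 bases were 97.6% identical, and both carry a TTGCNNAA and a TATAAA match, in capitals (GRCm38.p6, 5′ to 3′):
Cyp2a4 (chr7:26306942-26307191, plus strand): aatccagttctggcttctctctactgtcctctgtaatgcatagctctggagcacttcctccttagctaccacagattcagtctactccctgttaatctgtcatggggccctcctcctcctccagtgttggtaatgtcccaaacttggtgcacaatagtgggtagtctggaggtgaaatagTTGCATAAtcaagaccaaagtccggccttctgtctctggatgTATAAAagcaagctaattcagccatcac
Cyp2a5 (chr7:26835089-26835338, plus strand): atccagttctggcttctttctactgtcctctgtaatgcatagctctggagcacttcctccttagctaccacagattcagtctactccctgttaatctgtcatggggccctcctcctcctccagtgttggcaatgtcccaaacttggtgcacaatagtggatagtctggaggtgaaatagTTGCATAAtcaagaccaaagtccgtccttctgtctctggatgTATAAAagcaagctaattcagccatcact

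The Cyp2b genes were low in most livers. Of 5 members 2 were tested, and neither passed. Cyp2b9, a female-predominant member, was at 105, 1.09 and 0.49 CPM in WT and 4.20, 0.12 and 0.26 CPM in Hom livers. The WT mean thus came almost wholly from replicate 1, and the log2 fold change of −4.58 (SE 2.03, adjusted p = 0.110, edgeR) became 0.93 without that liver. Cyp2b10, the classical CAR target, was at 16.6, 16.0 and 11.8 CPM in WT and 11.2, 0.41 and 1.77 CPM in Hom livers. The groups did not overlap, but Hom replicate 1 lay close to the WT livers, and the log2 fold change of −1.75 (SE 0.92, adjusted p = 0.166) became −3.77 without it (adjusted p = 0.00479). Cyp2b13, another female-predominant member, had 52 counts in WT replicate 1 and 0 to 2 in each other liver and was not tested. Of the 4 CAR-inducible members, Cyp2c29 and Cyp2c37 fell and Cyp2b10 and Cyp2c55 did not pass.

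The other female-predominant Cyp2 genes were also highest in replicate 1 of each group. Cyp2c40 was at 16.8, 3.34 and 5.04 CPM in WT and 11.99, 4.95 and 0.65 CPM in Hom livers, and Cyp2c69 was at 5.81, 1.35 and 1.72 CPM in WT and 4.62, 1.86 and 0.22 CPM in Hom livers. Their log2 fold changes of −0.53 and −0.42 (adjusted p = 0.680 and 0.744, edgeR) turned to 0.48 and 0.53 without WT replicate 1. Of the 5 female-predominant members, 4 were tested and none passed over all 6 livers. The male-predominant genes outside the family fell in 5 of 6 cases, with or without the livers numbered 1. The female-predominant genes outside it rose in 2 of 3 tested cases. Of these 3, 1 rose without Hom replicate 1, 2 rose without WT replicate 1 and 2 rose without both. The part of sex in these values was not tested.

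**Figure D4:**
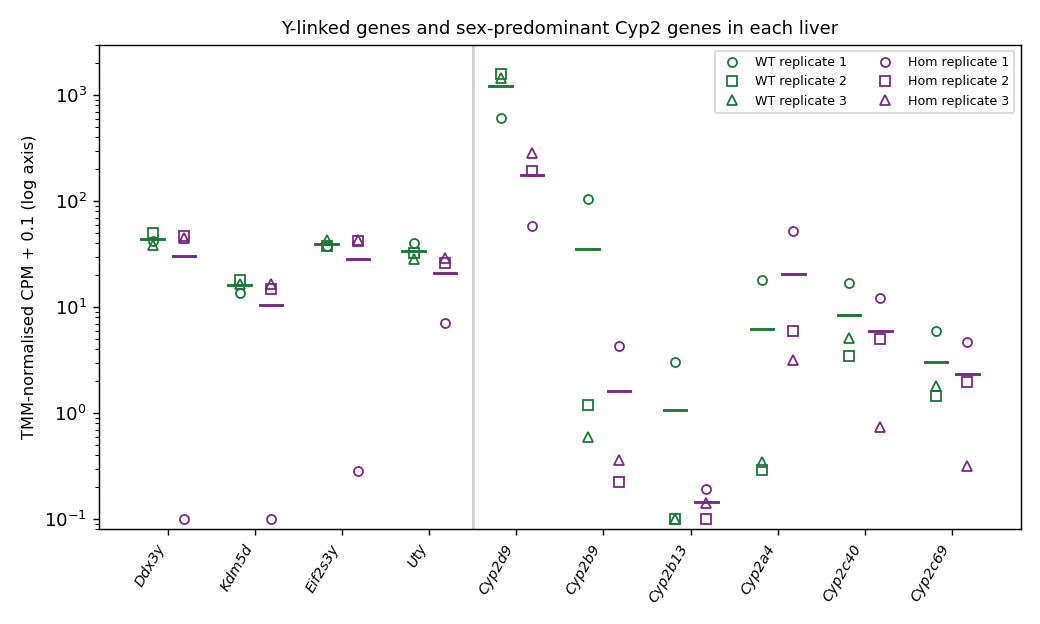
TMM-normalised CPM + 0.1 (vertical log axis) of 4 Y-linked genes (left of the line) and of male- and female-predominant Cyp2 genes (right), with 1 symbol per liver and a bar at the group mean. Hom replicate 1 (purple circle) is at or near the floor for Ddx3y, Kdm5d and Eif2s3y and below the other livers for Uty, and the circles of both groups are the highest of their group for Cyp2b9, Cyp2b13, Cyp2a4, Cyp2c40 and Cyp2c69 and the lowest for Cyp2d9.

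The 10 members that were not tested had at most 52 counts in any liver. They were Cyp2b13, Cyp2b19, Cyp2b23, Cyp2c65, Cyp2c66, Cyp2j8, Cyp2j12, Cyp2j13, Cyp2t4 and Cyp2w1. Cyp2b19 had 40 counts in WT replicate 3 and at most 4 elsewhere. Across the 20 members that fell, Hom replicate 1 was the lowest Hom liver in 14 and WT replicate 1 the lowest WT liver in 15.

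Close copies share sequence, so that their reads could be divided between them in the counting. Over the longest coding GENCODE transcript of each gene, 44.1% of the 100-base windows of Cyp2c40 occurred in another gene, as did 36.3% for Cyp2c69, 23.7% for Cyp2c67 and 19.8% for Cyp2c68, and the levels of these 4 genes are uncertain to that extent. The shares were 9.4% for Cyp2c50, 7.6% for Cyp2c54, 4.7% for Cyp2c37 and 14.4% for Cyp2a5. In the Cyp2d subfamily they were 14.8% for Cyp2d10, 12.2% for Cyp2d11 and 9.9% for Cyp2d9. Cyp2d11 shared 11.1% of its windows with the far more abundant Cyp2d10, so its few counts could include reads of that gene. For 30 of the 46 members the share was under 5%, among them Cyp2e1 at 1.5%, and Cyp2c29, Cyp2c70, Cyp2f2 and Cyp2s1 had none.

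Genes that serve the P450 enzymes were also measured. Of 7 electron donors and partners 5 fell and none rose, with a median log2 fold change of −0.60. With upper-quartile factors, without WT replicate 1 and without both livers numbered 1, 5 fell and 1 rose. But with library size alone 2 fell and 2 rose (median −0.14), and on log2(TPM + 1) values 1 fell and 2 rose (median 0.024). Cyb5b, at −1.11 (SE 0.14), and Cyb5a, at −0.87 (SE 0.13), encode cytochrome b5 proteins, and Pgrmc2 and Pgrmc1, heme-binding partners of P450 enzymes, were at −0.60 and −0.72. Por, the reductase that supplies electrons to every Cyp2 enzyme, was at 356 ± 22.9 CPM in WT and 463 ± 108 CPM in Hom livers (SD, n = 3) and did not pass the test (log2 fold change 0.38, adjusted p = 0.123, edgeR). Of 12 genes of heme synthesis and breakdown 7 fell and none rose, with a median of −0.47, but with library size alone 1 fell and 1 rose (median −0.011), and on log2(TPM + 1) values 1 fell and 2 rose (median 0.15). Cpox, which acts late in heme synthesis, fell most, at −1.87 (SE 0.14), and Urod, Fech and Alad were at −0.62, −0.73 and −0.64. Alas1, the rate-limiting enzyme, was at −0.30 and did not pass (adjusted p = 0.547).

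Among 12 receptors and transcription factors that act on Cyp2 genes, 8 fell and Arnt rose (0.31, adjusted p = 0.0373, edgeR), with a median of −0.60. Without WT replicate 1, 8 fell and none rose, so Arnt lost its call. With library size alone 4 fell and 2 rose (median −0.15), and on log2(TPM + 1) values 3 fell and 3 rose (median 0.030), so the direction of these lists depends on the scaling. Nr1i3, which encodes CAR, was at 87.7 ± 5.20 CPM in WT and 43.2 ± 1.54 CPM in Hom livers (SD, n = 3; log2 fold change −1.02, SE 0.078, adjusted p = 3.73e-04). Nr0b2, the repressor SHP, was at −1.35, Ppara at −1.30 and Stat5b, which carries growth hormone signals, at −0.89. Ahr, Cebpa and Nr3c1 did not pass the test. The shares that fell, 71.4%, 58.3% and 66.7% of the tested genes in these 3 lists, stand beside 55.6% of the Cyp2 genes and 20.1% of all tested genes.

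**Figure D5:**
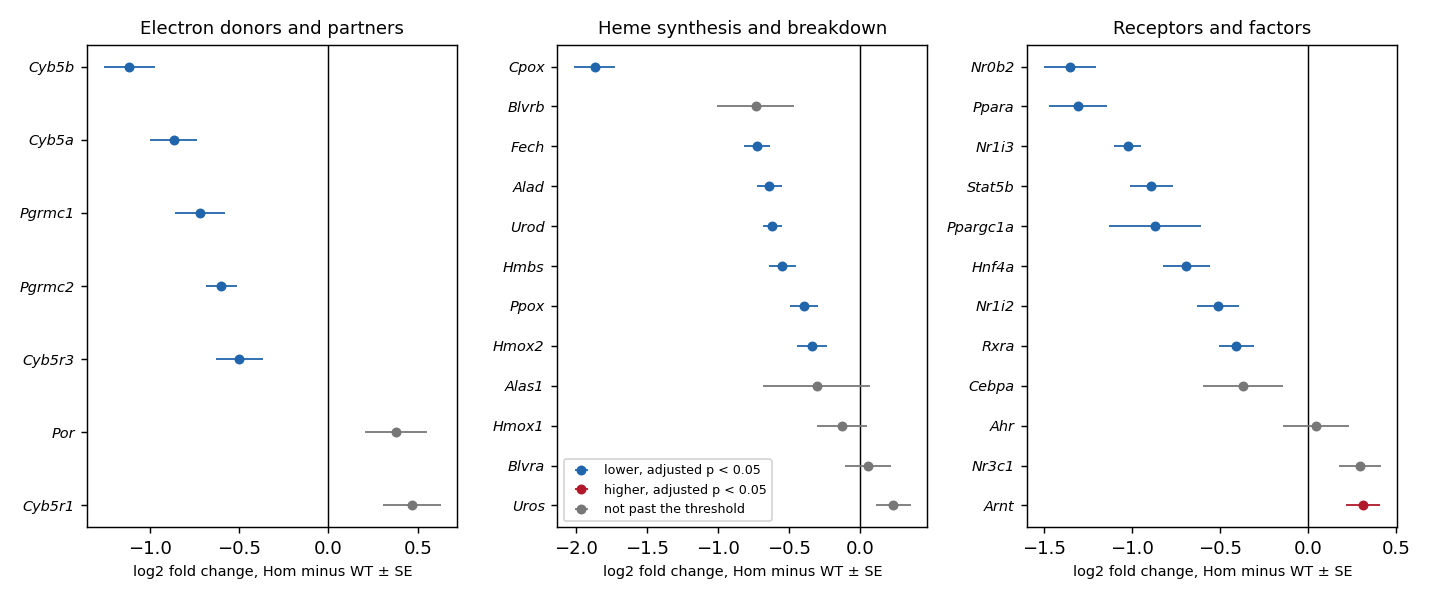
Log2 fold change, Hom minus WT (dots, horizontal axis), with the standard error (bars) for genes that donate electrons to or partner with P450 enzymes, genes of heme synthesis and breakdown, and receptors and factors that act on Cyp2 genes. Blue dots fell, the red dot (Arnt) rose and grey dots did not pass the test, and on the TMM scale most dots in each panel lie left of 0, while the medians turn above 0 on log2(TPM + 1) values.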

How the data were processed

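Whole-liver RNA of 3 Hom and 3 WT mice was sequenced by the authors, 100 mg of tissue per mouse. The submitters' processing notes name HISAT2 2.0.4, Bowtie2 2.2.5, RSEM 1.2.12 and the build mm9, and strandedness and annotation were not given in the sources used here. The authors deposited estimated counts, FPKM values (per length and library size) and TPM values for each liver, and 6 group means with crossed names, which were not used.

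Estimated counts were rounded and tested in R 4.3.3 with edgeR 4.0.16 (filterByExpr, TMM factors, quasi-likelihood test, Benjamini-Hochberg adjustment over all tested genes, adjusted p under 0.05, no minimum fold). Standard errors were computed from the F statistic of each gene and its log2 fold change. The 6 libraries had nearly equal totals, so precision is limited mainly by 3 livers per group and, for low genes, by few counts. TPM was used for levels between genes, and FPKM only to recover gene length. The scripts were tested on simulated data. Same-numbered livers come from different mice, and their deviations did not correlate (−0.109, −0.056 and −0.049).

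Per-liver values are given for the 6 members with the highest mean TPM, the 6 largest and 6 smallest changes among called members with a mean of at least 1 CPM, and members with a listed role. Other members named with values (Cyp2a12, Cyp2c23, Cyp2c67, Cyp2c68, Cyp2d10, Cyp2d11, Cyp2d12, Cyp2d34, Cyp2g1, Cyp2u1), and Por, Alas1, Arnt, Spp1 and Krt19, were chosen after their values were seen. The members and gene lists were chosen with earlier results of these data known. A gene of the list of receptors and factors is not reported here and was left out of its counts. Promoters are from RefSeq on GRCm38.p6 and transcripts from GENCODE M21, which are not the build of the counts.

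Alternatives were DESeq2 1.42.0, other scalings (library size alone, upper-quartile factors), other filters (none, or a minimum of 10 counts in every liver), a block for the replicate number, a gene length correction, limma 3.58.1 on log2(TPM + 1), a fold minimum, subfamily sums, each liver left out and, chosen after seeing the data, both livers numbered 1 left out.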

Additional observations from a re-analysis of the deposited data

How the results depend on the processing

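The 20 lower members became 15 to 21 under the alternatives, the fewest on log2(TPM + 1) values (15) and with library size alone (16). The count of higher members (1) was 2 with library size alone, 0 with at least 10 counts in every liver (Cyp2s1 was then not tested), 2 with the replicate block, 4 on log2(TPM + 1) values, 2 without both livers numbered 1, and 0 to 3 when single livers were left out (3 without WT replicate 1, 0 without WT replicate 3). The median of tested members (−1.13) was −1.27 with DESeq2, −0.68 with library size alone, −0.39 on log2(TPM + 1) values, where all genes had a median of 0.52, −1.01 without both livers numbered 1, and −1.18 to −1.08 with single livers left out. Signs were compared for the 30 members that were named or called. Signs turned for Cyp2a5 (0.40 with library size alone, 0.022 with upper-quartile factors, 0.0049 with the length correction, 0.53 on log2(TPM + 1) values, −0.37 to 0.16 with single livers left out), Cyp2r1 (0.20 with library size alone, 0.28 on log2(TPM + 1) values) and Cyp2j6 (0.18 on log2(TPM + 1) values). With single livers left out they also turned for Cyp2a4 (−0.47 to 6.48), Cyp2b9 (−7.50 to 0.93), Cyp2c40 (−1.58 to 0.48) and Cyp2c69 (−1.51 to 0.53). The summed Cyp2a counts gave −0.14, against a median of 0.0096 over its genes. Cyp2a12, outside these 30 members, was at −0.24 in the main fit. It was called higher on log2(TPM + 1) values and lower without both livers numbered 1. The causes were not tested. The replicate block called Cyp2b9 lower (−4.03, adjusted p = 0.0110, edgeR) and Cyp2a4 higher (2.58, adjusted p = 0.0265), and gave 21 lower members, of which 19 were among the 20, without Cyp2j9. Of 441 comparisons over 30 members and their alternatives, 399 kept direction and side of the threshold, 18 lost a call, 8 gained one and 16 changed sign.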
